A study of Saccharomyces cerevisiae with 14 samples.

Results

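Stable unannotated transcripts (SUTs) are RNA polymerase II transcripts of budding yeast that lie between or opposite to annotated genes and are seen in wildtype cells. They were taken here as every feature of the SUT section of the deposited read counts, which gave 745 SUTs among 21289 counted features of all kinds. The counts also held 779 cryptic unstable transcripts (CUTs), 1495 Xrn1-sensitive unstable transcripts (XUTs) and 6454 protein-coding features. A read was counted on every feature that it overlapped, so that a SUT can carry the same reads as a XUT, an antisense transcript or an intergenic interval that covers the same bases, and a count on a SUT does not by itself show that the RNA was the SUT.

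Pervasive transcription by RNA polymerase II gives rise to noncoding RNAs that differ mainly in their fate. CUTs are ended by the Nrd1-Nab3-Sen1 pathway and degraded by the nuclear exosome, whereas SUTs are longer lived, are capped and polyadenylated, and many reach the cytoplasm. XUTs are degraded there by the 5′-3′ exonuclease Xrn1, and some SUTs and XUTs associate with ribosomes on short open reading frames. Hel2 is the ubiquitin ligase that senses collided ribosomes and starts no-go decay, and New1 is a homolog of elongation factor 3 that acts on ribosomes close to the stop codon.

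CRAC, in which RNA is crosslinked to a tagged protein by ultraviolet light and the bound fragments are purified and sequenced, had been carried out in BY4741 cells. Hel2 with a genomic HTP tag (His6, TEV protease site and protein A) was examined in cells that were otherwise wildtype (Hel2-HTP::URA3) and in *new1Δ* cells (new1Δ::KanMX6) at 20°C and at 30°C, and New1-HTP (New1-HTP::URA3) was examined in wildtype cells at 20°C only. Cells of the same strain without a tag served as the control for the purification at each temperature, and all cultures were irradiated after growth in medium lacking tryptophan (per the methods also lacking uracil at 20°C). Each of these 7 groups had 2 replicate libraries, with 10 tagged and 4 untagged libraries in all. The libraries of the 2 temperatures were made by different steps after crosslinking, so that temperature and preparation cannot be told apart.

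The tagged libraries held between 1382670 and 4109446 reads on features. The untagged libraries at 30°C had 1954300 and 106914, and those at 20°C had only 1094 and 103436. These sums exceed the mapped reads, since a read counts on every feature it overlaps. Untagged replicate 1 at 20°C, for example, had 823 mapped reads. Shares and their intervals below take the sums as denominator. *NEW1* had 0 and 7 sense reads in the *new1Δ* libraries at 30°C and 0 and 0 at 20°C, against 105 to 1192 in the other tagged libraries, as the labels say. Intervals and limits given below treat each read as an independent count. Reads were not collapsed to molecules, and the median was 4 to 13 reads per distinct cDNA for SUTs in the tagged libraries. The intervals are thus too narrow for the counting error of molecules, and they leave out the spread between libraries.

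The positions of most SUTs were not given with the counts. RefSeq (assembly R64) annotated 9 of the 745, and 8 of these had the length that the deposited values give. The following 5 of these 8 are shown as those that the read numbers below concern. They are given from their 5′ end, up to 300 bases, with the longest open reading frame from ATG to stop within the printed stretch in capitals. SUT125 lies on the plus strand between *PIL1* and *PDC6* (chrVII:650855-651154 is shown), SUT126 on the plus strand between *NNF2* and *UTP22* (chrVII:660087-660386), and SUT035 on the plus strand between *TAF2* and YCR043C (chrIII:205766-205942, its whole length). SUT053 (plus strand, chrIV:506334-506633 shown) and SUT468 (minus strand, chrIV:507151-507450 shown) lie opposite to each other between *PST2* and *MRH1*, with SUT468 inside SUT053 over all of its 905 nt. No RefSeq gene overlapped SUT125, SUT126 or SUT035.
SUT125: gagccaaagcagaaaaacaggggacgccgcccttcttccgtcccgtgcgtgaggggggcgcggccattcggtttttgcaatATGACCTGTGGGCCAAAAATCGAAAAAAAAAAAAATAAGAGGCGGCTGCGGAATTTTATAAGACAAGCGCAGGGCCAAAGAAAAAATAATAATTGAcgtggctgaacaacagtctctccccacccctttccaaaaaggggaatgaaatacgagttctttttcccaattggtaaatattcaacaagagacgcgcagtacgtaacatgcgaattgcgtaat
SUT126: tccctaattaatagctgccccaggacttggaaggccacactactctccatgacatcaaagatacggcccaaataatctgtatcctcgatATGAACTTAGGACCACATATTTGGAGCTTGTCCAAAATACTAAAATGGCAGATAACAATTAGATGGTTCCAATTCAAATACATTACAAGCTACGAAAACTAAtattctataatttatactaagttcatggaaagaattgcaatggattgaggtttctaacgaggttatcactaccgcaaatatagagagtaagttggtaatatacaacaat
SUT053: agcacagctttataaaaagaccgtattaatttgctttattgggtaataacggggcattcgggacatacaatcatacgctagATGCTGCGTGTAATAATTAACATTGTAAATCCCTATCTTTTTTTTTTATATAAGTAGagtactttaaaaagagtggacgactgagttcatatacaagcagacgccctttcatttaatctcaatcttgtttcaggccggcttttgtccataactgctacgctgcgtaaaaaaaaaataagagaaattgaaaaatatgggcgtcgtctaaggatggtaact
SUT468: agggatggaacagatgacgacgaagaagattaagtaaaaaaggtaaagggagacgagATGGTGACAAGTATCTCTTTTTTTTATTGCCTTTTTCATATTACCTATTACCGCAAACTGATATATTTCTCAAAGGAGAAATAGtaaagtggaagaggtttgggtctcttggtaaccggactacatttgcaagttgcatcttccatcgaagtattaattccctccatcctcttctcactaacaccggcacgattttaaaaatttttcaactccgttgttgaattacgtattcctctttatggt
SUT035: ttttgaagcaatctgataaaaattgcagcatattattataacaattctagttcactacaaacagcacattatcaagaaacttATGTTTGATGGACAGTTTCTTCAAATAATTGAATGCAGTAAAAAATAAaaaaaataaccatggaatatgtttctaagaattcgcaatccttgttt

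The reading frames within these stretches held 31 codons in SUT125, 33 in SUT126, 18 in SUT053, 27 in SUT468 and 15 in SUT035, stop codons not counted. Beyond the printed bases, SUT126 and SUT053 held longer frames, of 76 and 41 codons. SUT125, SUT126 and SUT035 each had most of their reads from a single library. SUT125 had 69 sense reads in Hel2-HTP wildtype replicate 1 at 20°C, 15 in *new1Δ* replicate 2 at 20°C and 2 in New1-HTP replicate 1, and none in the other 11 libraries. SUT126 had 74 in New1-HTP replicate 2 and 1 in *new1Δ* replicate 2 at 30°C, and SUT035 had 40 in New1-HTP replicate 1 and 1 each in Hel2-HTP wildtype replicate 1 at 30°C and replicate 2 at 20°C. The 40 reads on SUT035 came from 2 distinct cDNAs, the 74 on SUT126 from 8 and the 69 on SUT125 from 6.

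The pair SUT053 and SUT468 shows how the strand of a read decides the SUT. SUT053 had 94 sense reads in *new1Δ* replicate 1 at 30°C, 22 in Hel2-HTP wildtype replicate 1 at 20°C, 5 in untagged replicate 2 at 30°C, 3 in *new1Δ* replicate 2 at 30°C and 1 in New1-HTP replicate 2. SUT468 had 94, 22, 3 and 1 antisense reads in the same tagged libraries and 1 sense read in all. The reads of this locus in the tagged libraries were thus nearly all on the strand of SUT053.

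Purification from tagged cells was set against that from untagged cells first, since the control shows how much RNA of each kind is recovered without a tag. At 30°C, SUTs took a larger share of the reads in untagged than in tagged cells. SUT sense reads were 0.376% of the reads on features in untagged replicate 1 (7355 reads, 95% Wilson interval 0.368% to 0.385%) and 0.543% in replicate 2 (581 reads, 0.501% to 0.589%). Hel2-HTP wildtype had 0.106% (0.102% to 0.109%) and 0.130% (0.124% to 0.136%), and *new1Δ* had 0.156% (0.153% to 0.160%) and 0.110% (0.105% to 0.116%). All 4 tagged libraries lay below both untagged ones.

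The mean was 0.460% ± 0.118 (SD, n = 2) without a tag and 0.125% ± 0.0231 (SD, n = 4) with Hel2-HTP, a 3.67-fold difference. In a two-sided exact permutation test over libraries this gave p = 0.0667, the smallest that 4 against 2 libraries allow (0.267 after Benjamini-Hochberg adjustment over the 4 comparisons of SUT shares). When distinct cDNAs, which the files give for both strands together, were counted in place of sense reads, the log2 ratio of tagged over untagged was −0.26 in place of −1.88 (exact permutation p = 0.267). This adds the antisense strand as well as counting molecules, so that it does not show what sense molecules alone would give. Antisense reads took 0.657% of the reads without a tag and 0.761% with Hel2-HTP at 30°C.

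At 20°C the control was too shallow for such a comparison. Untagged replicate 1 had 2 SUT reads, 0.183% of its reads with an interval from 0.0502% to 0.664%. Replicate 2 had 71, 0.0686% (0.0544% to 0.0866%), all of them on SUT004 and from 6 distinct cDNAs. Hel2-HTP wildtype had 0.119% (0.114% to 0.124%) and 0.108% (0.105% to 0.112%), *new1Δ* had 0.0903% (0.0864% to 0.0943%) and 0.0291% (0.0264% to 0.0321%), and New1-HTP had 0.118% (0.113% to 0.122%) and 0.125% (0.121% to 0.129%). Tagged libraries had a mean of 0.0983% ± 0.0360 (SD, n = 6) and untagged ones of 0.126% ± 0.0807 (SD, n = 2), and these overlapped (exact permutation p = 0.464, smallest possible 0.0357). Without SUT004 the log2 ratio of tagged over untagged changed from −0.36 to 0.078, and without untagged replicate 1 to 0.52.

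**Figure D1:**
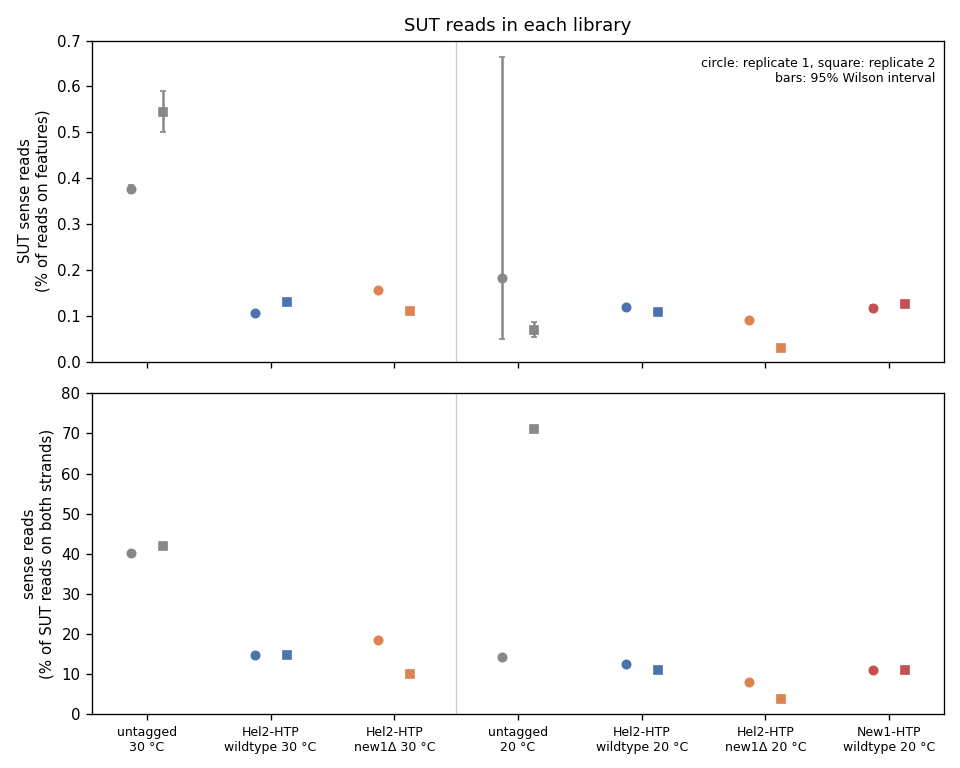
The upper panel gives SUT sense reads as a percentage of all reads on features for each library (points; bars are 95% Wilson intervals), and the lower panel the percentage of SUT reads that lay on the sense strand. At 30°C the 2 untagged libraries (0.376% and 0.543%) lie above the 4 tagged ones (0.106% to 0.156%), and sense reads are 40.2% and 41.9% of SUT reads there against 9.96% to 18.4%.

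Set against other transcript classes of the same libraries, the SUTs at 30°C moved with the XUTs and apart from the mRNAs and CUTs. At 30°C there were 2.35 and 2.43 SUT reads for every 100 reads on protein-coding features in the untagged libraries and 0.386 to 0.648 in the tagged ones. SUT reads per CUT read were 1.81 and 1.92 without a tag and 0.283 to 0.350 with Hel2-HTP. SUT reads per XUT read differed far less, 0.727 and 0.737 without a tag and 0.615 to 0.693 with it. The 2 classes hold some reads in common, since 59 SUTs had the read numbers of a XUT in all 14 libraries. At 20°C SUT reads per XUT read had a mean of 0.582 with a tag and 0.4525 in the shallow untagged libraries.

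Each of these 3 ratios separated the untagged from the tagged libraries at 30°C without overlap, with p = 0.0667 in two-sided exact permutation tests, again the smallest possible (0.1 after adjustment over the 9 ratios tested). In reads per kb of the class and per 1000000 mapped reads, SUTs had 8.24 and 11.1 in the untagged libraries at 30°C and 2.04 to 3.08 in the tagged ones. Protein-coding features had 25.8 and 33.7 without a tag and 34.9 to 40.6 with Hel2-HTP at 30°C. Intergenic intervals went the way of the SUTs, with 10.8 and 13.9 without a tag and 5.78 to 8.65 with Hel2-HTP at 30°C. The higher level without a tag was thus not particular to SUTs and XUTs. The CUT level in tagged libraries rested largely on single features, since 1 CUT held 33.5% to 76.7% of all CUT reads in each of them.

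**Figure D2:**
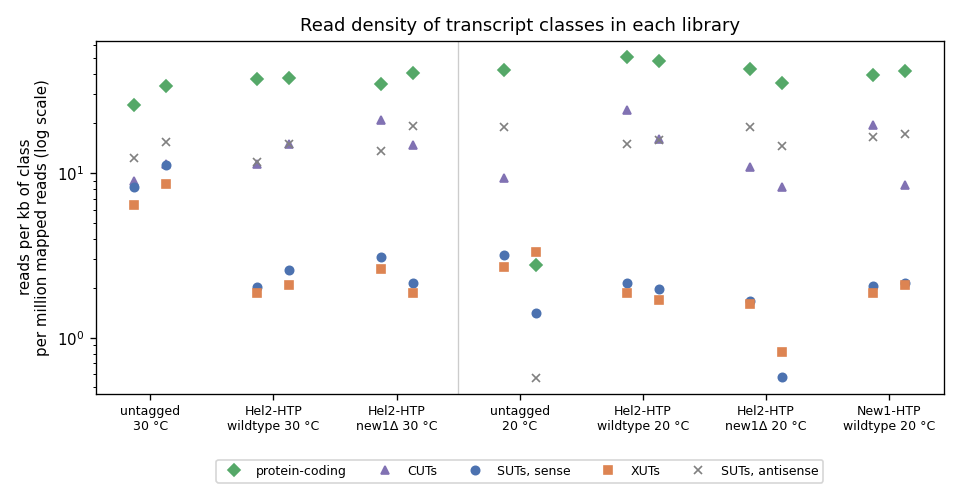
Reads per kb of each class and per 1000000 mapped reads in each library, on a log axis, for protein-coding features, CUTs, XUTs and the sense and antisense strand of SUTs, with replicate 1 to the left of replicate 2. SUTs lie beside XUTs in every tagged library (0.575 to 3.08 for SUTs) and reach 8.24 and 11.1 in the untagged libraries at 30°C; untagged replicate 2 at 20°C had no CUT read and has no CUT point.

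In the tagged libraries, most reads at SUT loci came from the other strand. Over the 10 tagged libraries, 28890 reads lay on the sense and 210126 on the antisense strand of SUTs. Sense reads were 40.2% and 41.9% of both strands in the untagged libraries at 30°C, 9.96% to 18.4% in the tagged ones at 30°C and 3.79% to 12.4% in the tagged ones at 20°C. The shallow untagged libraries at 20°C had 14.3% (of 14 reads) and 71.0% (of 100 reads, 71 of them on SUT004). The antisense reads themselves took similar shares at 30°C, 0.657% ± 0.138 (SD, n = 2) of the reads without a tag and 0.761% ± 0.166 (SD, n = 4) with Hel2-HTP (exact permutation p = 0.6, also after adjustment). Counted over all 14 libraries, 468 SUTs had more antisense than sense reads, 267 had more sense reads and 10 had equal numbers.

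The most antisense reads in the tagged libraries were on SUT091 (11431), SUT508 (9120) and SUT768 (6821). For each such SUT, the protein-coding feature whose sense reads came closest to the SUT's antisense reads over the 14 libraries was looked up; this matches numbers and not positions. For SUT508 no library was equal to the nearest gene, and for SUT091 only 2 were. SUT069 had 143 sense and 5245 antisense reads in the tagged libraries, and the nearest gene was *HXT3*, which codes for a hexose transporter and had 5139 sense reads, with equal numbers in 8 of the 14 libraries. SUT747 (139 sense and 4262 antisense reads) was nearest to *YGP1*, the gene of a secreted glycoprotein, with 4383 sense reads and equal numbers in 10 libraries. SUT719, known as the antisense transcript of *SUR7*, a gene of the eisosome, had 1 sense read in all libraries together, in Hel2-HTP wildtype replicate 2 at 20°C.

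The opposite strand of SUT719 followed *SUR7* without being equal to it. In the tagged libraries at 30°C, SUT719 had 120 and 87 antisense reads in wildtype and 93 and 13 in *new1Δ*, and *SUR7* had 119 and 57 and then 93 and 13 sense reads. At 20°C, SUT719 had 0 and 200, 111 and 83, and 189 and 59 in Hel2-HTP wildtype, *new1Δ* and New1-HTP, where *SUR7* had 0 and 200, 111 and 83, and 187 and 0. *SUR7* was the protein-coding feature nearest to it.

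For part of the SUTs the shared reads could be traced through equal numbers. Of 182 SUTs with at least 20 sense reads in all and reads in at least 3 libraries, 92 had exactly the same number of reads in all 14 libraries as a feature of another section. The partner was a XUT for 59 of them, an antisense transcript named after a gene for 35, another antisense transcript for 28 and an intergenic transcript for 15. None had the numbers of a protein-coding feature.

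The names of the antisense partners gave a gene for 33 SUTs, through read numbers and not positions. These included SUT322 opposite to *FET4* (low-affinity iron transporter), SUT128 opposite to *MEP1* (ammonium permease), SUT587 opposite to *NDT80* (transcription factor of meiosis), SUT498 opposite to *STL1* (glycerol symporter) and SUT314 opposite to *RKR1*, which codes for the ubiquitin ligase of ribosome quality control known as Ltn1. Summed over the tagged libraries, *FET4* had 125 antisense reads where SUT322 had 125 sense reads. *RSB1*, however, had 2 where SUT366 had 146, and YIL089W had 0 where SUT610 had 121. Not all such reads thus lay opposite to the gene named. In the same sums, the named gene had more sense reads than the SUT in 20 of the 33 and fewer in 13. The medians were 136 sense reads on the gene and 100 on the SUT. SUT314 had 98 and 9 sense reads in Hel2-HTP wildtype at 30°C, 85 in replicate 1 at 20°C, 1 in untagged replicate 2 at 30°C and none elsewhere, and *RKR1* had 1126 in the tagged libraries. SUT498 had 185 reads in the tagged libraries against 1 on *STL1*.

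Among the members, few SUTs were seen often. Of the 745, 577 had a sense read in some library and 168 had none. In the tagged libraries 552 had a read, and 215 of these had it in 1 library only, 276 in 2 to 4, 61 in 5 or more and 4 in all 10. Another 25 had reads only without a tag. With at least 10 reads as the limit for detection, 292 SUTs were detected in some tagged library, 184 of them in 1 library only, 108 in 2 or more and 9 in 5 or more. The SUTs detected in a tagged library were longer, with a median of 1097 nt against 713 nt for the others (range over all 41 to 4914 nt).

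The 12 SUTs with the highest mean share of SUT reads over the tagged libraries were SUT514, SUT098, SUT456, SUT494, SUT551, SUT388, SUT338, SUT016, SUT350, SUT223, SUT307 and SUT004, with mean shares from 1.93% down to 1.06%. No SUT dominated, and the 12 with the most reads held 14.7% of the SUT reads of the tagged libraries. The order rested in part on *new1Δ* replicate 2 at 20°C, the tagged library with the fewest SUT reads (402), and without it 7 of the 12 stayed among the first 12. SUT456, SUT494, SUT551, SUT338 and SUT223 did not, and their mean shares fell from 1.78% to 0.738%, 1.72% to 0.00253%, 1.46% to 0.355%, 1.31% to 0.0178% and 1.15% to 0.259%. In that library SUT494 had 69 reads and SUT338 had 52. Elsewhere SUT494 had 1 sense read and SUT338 had 3.

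SUT098 had at least 10 reads in both replicates of more groups than any other SUT. It had 98 and 12 sense reads in the untagged libraries at 30°C, 106 and 12 in Hel2-HTP wildtype there, and *new1Δ* had 179 and 12. At 20°C it had 0 and 0 without a tag, 114 and 38 in Hel2-HTP wildtype, 103 and 0 in *new1Δ* and 0 and 0 in New1-HTP. It was present with at least 10 reads in every library at 30°C, tagged or not. Its reads equalled those of XUT_5F-239 and of intergenic-48 within 10% in all 6 libraries where either had at least 20 reads.

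SUT514, of 4281 nt, had 86 and 0 reads in Hel2-HTP wildtype at 30°C and 0 and 166 at 20°C. *new1Δ* had 0 and 9 at 30°C and 120 and 0 at 20°C, and New1-HTP had 121 and 66. It had 96 and 0 in the untagged libraries at 30°C and none in those at 20°C. New1-HTP was the only tagged group in which both replicates had at least 10 reads. SUT388 had 219 and 6 reads in Hel2-HTP wildtype at 30°C and 60 and 0 at 20°C, where *new1Δ* had 0 and 10 and then 74 and 0. It had none in New1-HTP, 0 and 13 without a tag at 30°C and none without a tag at 20°C. In no group did both replicates reach 10 reads. SUT004 had 44 and 7 reads in Hel2-HTP wildtype at 30°C, 115 and 73 at 20°C, none in any *new1Δ* library, 0 and 91 in New1-HTP, 108 and 0 without a tag at 30°C and 0 and 71 without a tag at 20°C, and thus was present in untagged cells at either temperature.

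The other SUTs among the 12 were as uneven. SUT307 had 56 and 90 reads in Hel2-HTP wildtype at 30°C and 0 and 123 at 20°C, 0 and 30 in *new1Δ* at 30°C, and none in *new1Δ* at 20°C or in New1-HTP. The untagged cells had 0 and 10 at 30°C and 1 and 0 at 20°C. SUT016 had 58 and 70 reads in Hel2-HTP wildtype and 152 and 0 in *new1Δ* cells at 20°C, and at 30°C 52 and 0 without a tag, none in wildtype and 1 and 2 in *new1Δ*.

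Both strands of SUT016 carried reads, with up to 1018 antisense reads in New1-HTP replicate 2, where the sense strand had none. SUT551 had 12 reads in Hel2-HTP wildtype replicate 2 at 30°C, 75 in replicate 2 at 20°C, 46 in *new1Δ* replicate 2 at 20°C and 33 in New1-HTP replicate 2, and none in any replicate 1 or untagged library. SUT223 had 75 in Hel2-HTP wildtype replicate 1 at 30°C, 37 in *new1Δ* replicate 2 at 20°C and 0 to 2 in every other library. Over the 14 libraries the features most like these in log2 read level were *XDJ1* for SUT307 (r = 0.943), XUT_2F-150 for SUT016 (r = 0.99), Unit128 for SUT551 (r = 1) and an intergenic interval for SUT223 (r = 0.981); such features can hold the same reads.

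Per kb and per 1000000 mapped reads, SUT298, SUT307, SUT781, SUT388 and SUT098 were highest, with means from 53.3 down to 31.6 over the tagged libraries. SUT298 measures only 73 nt and had reads only at 30°C, 48 and 0 without a tag, 0 and 4 in Hel2-HTP wildtype and 39 and 19 in *new1Δ*. SUT781 had 82 and 80 reads in New1-HTP, 2 and 0 in Hel2-HTP wildtype at 20°C and 0 and 3 at 30°C. *new1Δ* had 49 and 0 at 20°C and 32 and 2 at 30°C, and there were 1 and 0 without a tag at 30°C and none without a tag at 20°C. In New1-HTP the replicates of SUT781 were close to each other, and both lay above every other library.

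**Figure D3:**
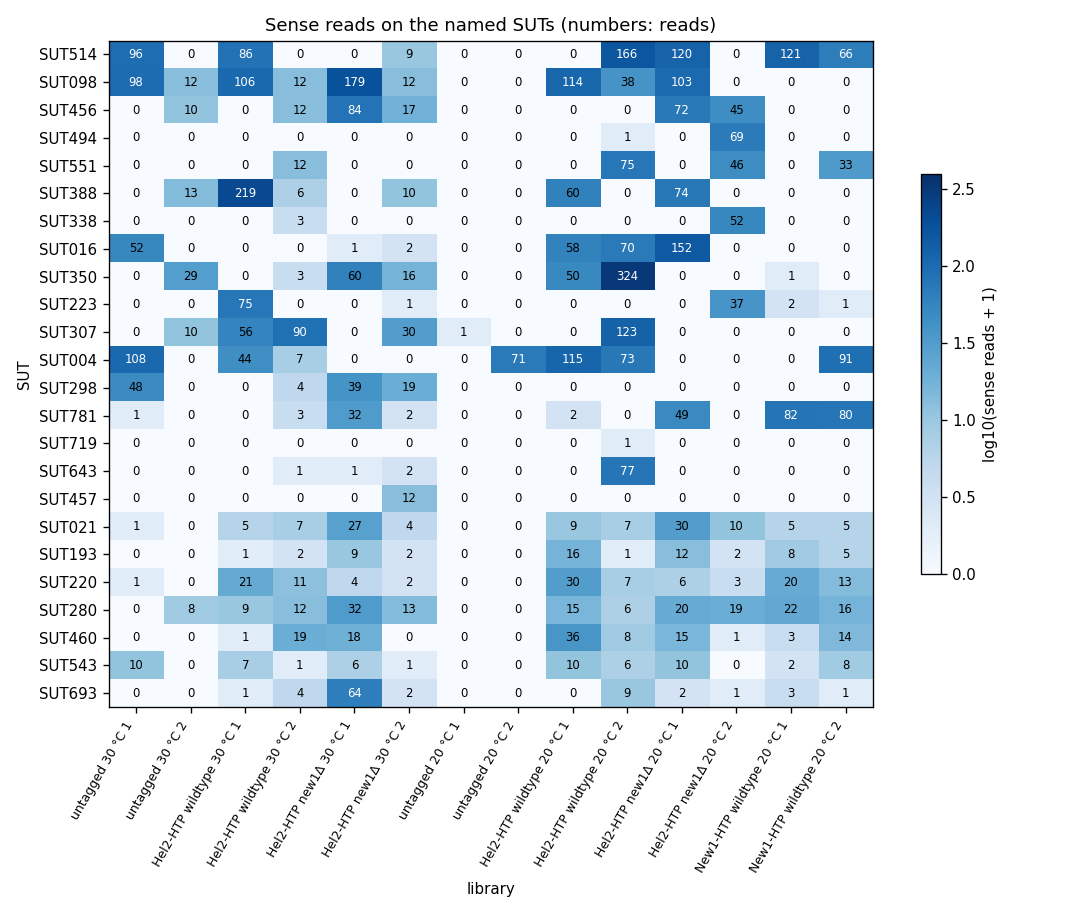
Sense reads on the named SUTs (rows) in the 14 libraries (columns), as numbers and as colour on a log10(reads + 1) scale. The upper rows, such as SUT350 with up to 324 reads, have large numbers in some libraries and 0 in others of the same group, while SUT280 has 6 to 32 reads in all 10 tagged libraries.

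A second kind of SUT had few reads but was seen nearly everywhere. SUT021, SUT193, SUT220 and SUT280 had reads in all 10 tagged libraries and SUT460, SUT543 and SUT693 in 9 (this limit was chosen after the values were seen). SUT280 had 9 and 12 reads in Hel2-HTP wildtype at 30°C and 15 and 6 at 20°C, where *new1Δ* had 32 and 13 and then 20 and 19. It had 22 and 16 in New1-HTP, 0 and 8 without a tag at 30°C and none without a tag at 20°C. SUT021 had 5 and 7 reads in Hel2-HTP wildtype at 30°C and 9 and 7 at 20°C, where *new1Δ* had 27 and 4 and then 30 and 10. It had 5 and 5 in New1-HTP, with 1 read in untagged replicate 1 at 30°C. SUT220 ranged from 2 to 30 reads over the tagged libraries, with 1 read in all untagged ones.

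In reads, SUT280 was higher and SUT220 lower in *new1Δ* than in wildtype at each temperature without overlap. Per mapped read, however, SUT280 overlapped at 30°C and SUT220 at 20°C, and neither passed the test (edgeR adjusted p = 1 at each temperature). SUT460, opposite to *INH1* (inhibitor of the mitochondrial ATP synthase), had 0 to 36 reads in the tagged libraries and none in any untagged one. With each read taken as independent, 0 reads allow up to 3 reads in each untagged library. This is 0.00015% and 0.0028% of the reads at 30°C and 0.274% and 0.0029% at 20°C. SUT460 was itself at 36 reads or fewer in tagged libraries of 1382670 reads on features or more, so that its absence can be judged only from untagged replicate 1 at 30°C.

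Other SUTs studied singly were scarce. SUT643, the IRT1 transcript of the *IME1* promoter, had 77 sense reads in Hel2-HTP wildtype replicate 2 at 20°C and 0 to 2 in every other library. SUT457 had 12 reads, all in *new1Δ* replicate 2 at 30°C. Both were thus measured in a single library, with no second replicate to set beside it.

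Agreement between replicates was poorer for SUTs than for mRNAs in the same range of reads, and was low for XUTs and CUTs too. At least 10 reads in both replicates were found for 13 SUTs in Hel2-HTP wildtype at 30°C (29.6% of those detected in replicate 1 and 22.0% of those in replicate 2), 14 in *new1Δ* at 30°C (17.3% and 29.8%), 10 in Hel2-HTP wildtype at 20°C (24.4% and 16.4%), 3 in *new1Δ* at 20°C (7.69% and 27.3%), 9 in New1-HTP (22.0% and 14.5%) and 2 in untagged cells at 30°C (2.41% and 11.1%). Of SUTs with 10 to 99 reads in a tagged library, 19.3% to 65.6% (median 31.2%) had any read in the other replicate. These were 23.3% to 58.1% for XUTs (median 37.9%), 17.4% to 47.6% for CUTs (median 30.5%) and 39.5% to 94.2% for protein-coding features (median 65.8%). Within that range the median reads per library were 13 to 63 for SUTs and 25 to 64 for protein-coding features, so that the numbers of reads were not the same. The mRNA value was higher in 12 of 12 libraries, the untagged ones at 30°C included.

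The reads on a SUT came from few distinct cDNAs. Among SUTs with 10 to 99 sense reads and no antisense read, the median number of distinct cDNAs was 3 to 8 per tagged library, and 16.1% to 57.1% of such SUTs had at most 3. For protein-coding features chosen in the same way the medians were 4 to 8, and 11.3% to 38.0% had at most 3. The median reads per cDNA were 4 to 13 for SUTs and 3.52 to 13.2 for protein-coding features. The part of cDNA number in the disagreement of replicates was not tested.

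**Figure D4:**
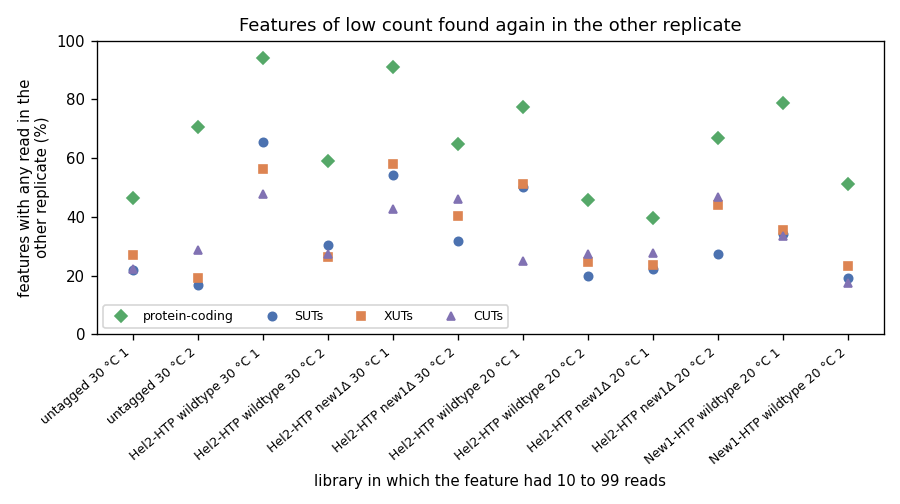
For each library, the percentage of its features with 10 to 99 sense reads that had any read in the other replicate of the group, for protein-coding features, SUTs, XUTs and CUTs; the untagged group at 20°C, with at most 1 such SUT, is left out. The protein-coding points (39.5% to 94.2% in tagged libraries) lie above the SUT points (19.3% to 65.6%) in all 12 libraries.

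Whether Hel2 was on other SUTs in the absence of New1 was examined by comparing *new1Δ* with wildtype Hel2-HTP libraries. The SUT share did not separate the strains. In the 4 pairs of replicates, the SUT share in *new1Δ* was 0.758 and 0.268 times that of wildtype at 20°C and 1.48 and 0.848 times at 30°C, lower in 3 of 4 pairs (two-sided exact test over sign changes, p = 0.625, with 0.125 the smallest possible and 0.667 after adjustment over the 4 comparisons of shares). The ratio of the mean shares rested on *new1Δ* replicate 2 at 20°C, the library with 402 SUT reads. With its pair left out, the log2 ratio of the means was 0.0085 in place of −0.26, and with distinct cDNAs of both strands it was 0.14.

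For single SUTs, edgeR's quasi-likelihood test was run over all features. At 20°C, 105 of the 745 SUTs entered the test and 0 passed an adjusted p of 0.05 (0 also at an unadjusted p under 0.05), where 0.583% of the 6350 features tested passed. Of these 105, 23 had no read in either group at 20°C and could not differ there. With only the libraries compared, 0 of 25 SUTs tested passed. At 30°C, 0 of the 105 SUTs passed (0 at an unadjusted p under 0.05), with 0.0945% of all features, and 2 of the 105 had no read in either group there. DESeq2 called 1 SUT at 20°C, where it called 10.1% of the features it gave an adjusted p for, and 0 SUTs at 30°C, where it called 3.51% of the 1795 features with an adjusted p. No difference of the *new1Δ* change between temperatures passed for the 105 SUTs in an edgeR test of the interaction (smallest adjusted p = 1, and 0 at an unadjusted p under 0.05).

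The SUT that DESeq2 called was SUT456. It had 72 and 45 sense reads in *new1Δ* at 20°C, from 18 and 8 distinct cDNAs. Hel2-HTP wildtype had 0 and 0 there (DESeq2 adjusted p = 0.0393, edgeR adjusted p = 0.948). With 3 reads over the group in place of 0, SUT456 was 64.9-fold higher in reads, which is not a lower limit in molecules. Its *new1Δ* libraries at 30°C held 84 and 17 reads, those of wildtype 0 and 12, without overlap but not past the test (edgeR adjusted p = 1). It also had 0 and 10 reads in untagged cells at 30°C and none in New1-HTP or in untagged cells at 20°C. The feature whose log2 read levels were most like it over the 14 libraries was *CSM3* (r = 0.928), a gene of the replication fork.

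SUT350 had the opposite order at 20°C. Hel2-HTP wildtype held 50 and 324 reads there, from 5 and 58 distinct cDNAs, and *new1Δ* none (edgeR adjusted p = 0.948). With 3 reads in place of 0, SUT350 was 74.9-fold lower in reads in *new1Δ*, again not a limit in molecules. At 30°C its order was that of SUT456, since wildtype held 0 and 3 reads and *new1Δ* 60 and 16. It had 0 and 29 reads without a tag at 30°C, none without a tag at 20°C, and 1 and 0 in New1-HTP. Over the 105 SUTs the median fitted log2 change was −0.21 at 20°C, where it was −0.64 over all features, and 0.00 at 30°C, where it was −0.01. At 20°C, however, 66 of the 105 had no read in *new1Δ* and 33 none in wildtype, and with such sums set to 3 reads the median was 0.61, so that no direction can be read from it.

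Distinct cDNAs, which cover both strands, gave some calls at SUT loci, and the reads there were nearly all on the strand opposite to the SUT. In edgeR on cDNA numbers, 6 of 128 SUTs tested passed at 20°C, 5 higher and 1 lower in *new1Δ*, where 4.02% of the 6565 features passed. At 30°C 3 of 128 passed, all higher, with 1.52% of the features. These counts are near those over all features. SUT091, SUT279 and SUT462 were called at either temperature, SUT248 and SUT300 as higher and SUT395 as lower at 20°C only.

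SUT462 had no sense read in Hel2-HTP wildtype at 20°C and a single one in *new1Δ* replicate 1, but 0 and 97 antisense reads in wildtype where *new1Δ* had 1098 and 344. At 30°C it had no sense read in these strains, and 0 and 38 against 459 and 515 antisense reads. Its log2 change in cDNAs was 5.37 ± 0.893 (SE) at 20°C and 4.28 ± 0.860 (SE) at 30°C (edgeR adjusted p = 1.59e-06 and 0.000217). The nearest gene by sense reads was *NPC2*, which codes for a sterol transfer protein of the vacuole, equal in 10 of 14 libraries. The equal libraries with reads had 115, 38, 97, 344 and 440, and the other equal ones had 0 on both.

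SUT279 had at most 4 sense reads in any library, and its antisense reads at 20°C were 92 and 81 in wildtype where *new1Δ* had 1450 and 246. At 30°C wildtype had 0 and 67 and *new1Δ* 1075 and 308 (log2 change in cDNAs 4.03 ± 0.844 and 3.67 ± 0.888, SE; edgeR adjusted p = 0.000299 and 0.00524). It was nearest to *TMA7*, named for association with ribosomes, with equal numbers in 7 libraries. Of these, only the libraries with 67, 92 and 89 reads were not 0 on both. In Hel2-HTP wildtype replicate 2 at 20°C, by contrast, *TMA7* had 154 reads where SUT279 had 81. SUT091 had 0 and 62 sense reads in wildtype at 20°C and none in *new1Δ*. Its antisense reads there overlapped in number, with 192 and 471 in wildtype but 1942 and 378 in *new1Δ*, and did not overlap per 1000000 mapped reads, with 135 and 162 set against 1247 and 416. Wildtype at 30°C had 628 and 131 antisense and 0 and 14 sense reads, whereas *new1Δ* had 4048 and 3163 antisense and 109 and 6 sense reads. Its log2 change in cDNAs was 2.20 ± 0.455 (SE) at 20°C and 3.23 ± 0.465 (SE) at 30°C (edgeR adjusted p = 0.000229 and 2.97e-08), and the nearest gene was the ribosomal protein gene *RPL34A*, which has a near-identical copy and differed from SUT091 by 23.8% of its antisense reads.

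**Figure D5:**
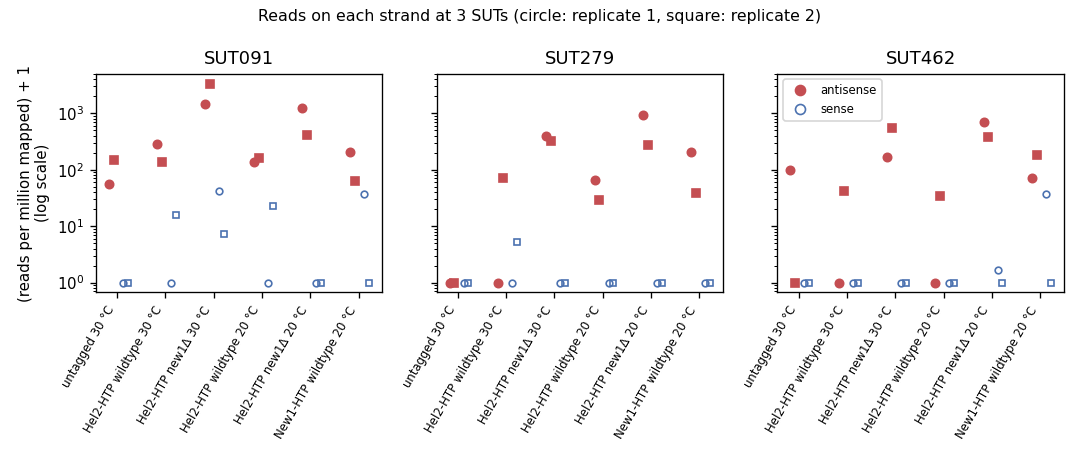
Antisense (filled) and sense (open) reads per 1000000 mapped reads, plus 1, on a log axis at SUT091, SUT279 and SUT462, by group with replicate 1 as circles and replicate 2 as squares; the untagged group at 20°C is left out. The antisense reads of *new1Δ* lie above those of wildtype at both temperatures (for SUT279 271 to 931 against 27.9 and 64.8 per 1000000 mapped reads at 20°C), while the sense reads stay at or near 0 in most libraries.

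Which SUTs the 2 proteins share was examined by setting New1-HTP against Hel2-HTP in wildtype cells at 20°C. The SUT share did not separate them, with 0.121% ± 0.00516 (SD, n = 2) for New1-HTP and 0.114% ± 0.00755 (SD, n = 2) for Hel2-HTP (two-sided exact permutation test, p = 0.667, smallest possible 0.333). By edgeR, 0 of 44 SUTs tested passed (0 at an unadjusted p under 0.05), where 0.0387% of the 5172 features passed, and DESeq2 called 0 (5 at an unadjusted p under 0.05), with 1.46% of the 2465 features that it gave an adjusted p for.

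Among the named SUTs, some were nearly absent from 1 of these groups. SUT098, with 114 and 38 reads in Hel2-HTP, had none in New1-HTP, at least 44.7-fold lower (edgeR adjusted p = 0.933). SUT781 had 82 and 80 reads in New1-HTP and 2 and 0 in Hel2-HTP (edgeR adjusted p = 0.986). The groups did not overlap for either SUT, and neither passed the test. Of the 44 SUTs, 10 had no read in New1-HTP and 7 none in Hel2-HTP.

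Hel2-HTP wildtype was finally set against untagged cells for single SUTs. At 30°C, 0 of 102 SUTs passed in edgeR (2 at an unadjusted p under 0.05, SUT837 and SUT587), where 1.11% of the 5701 features passed, all of them higher with the tag. The median fitted log2 change was −1.77 for these SUTs, −1.28 for XUTs, 0.50 for CUTs, 0.58 for protein-coding features and 0.62 for all features, and it was −1.71 for the SUTs with sums under 3 reads set to 3. A SUT could enter the test by its reads in untagged cells alone, so that these medians only describe the features tested.

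DESeq2 called 1 SUT at 30°C, SUT837, and 17.1% of the 2938 features with an adjusted p. SUT837 had 108 and 8 reads in untagged cells and 0 and 0 in Hel2-HTP wildtype (edgeR adjusted p = 0.358), but also 268 and 0 in *new1Δ* at 30°C. With 3 reads in place of 0 it was 88.8-fold lower in reads in Hel2-HTP wildtype. The 108 and 8 reads came from only 3 and 2 distinct cDNAs, so that this value rests on few molecules. On its antisense strand, Hel2-HTP wildtype had 82 and 9 reads at 30°C. At 20°C SUT837 had 30 sense reads in Hel2-HTP wildtype replicate 2, 1 in *new1Δ* replicate 1 and none elsewhere. SUT587, opposite to *NDT80*, had 140 and 2 reads in untagged cells, none in Hel2-HTP wildtype at 30°C, and 2 and 9 in *new1Δ* at 30°C (edgeR adjusted p = 0.434). At 20°C it had 0 and 67 in Hel2-HTP wildtype, 2 and 0 in New1-HTP and none in *new1Δ* or in untagged cells. With distinct cDNAs, 3 of 127 SUTs passed at 30°C, SUT057 and SUT248 higher and SUT383 lower with the tag, where 8.93% of the 6316 features passed, and these had 0 to 5 sense reads each in the libraries compared.

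At 20°C, 0 of 45 SUTs passed in edgeR against untagged cells for Hel2-HTP wildtype (0 at an unadjusted p under 0.05) and 0 of 45 for New1-HTP (1 at an unadjusted p under 0.05, SUT004), where 1.75% and 1.45% of the 5187 features passed. DESeq2 called 0 SUTs in either, and 41.4% and 37.8% of the features it gave an adjusted p for. SUT004 was called lower in 6 of 8 fits that left out 1 library for Hel2-HTP and in 7 of 8 for New1-HTP, where 2.69% to 6.26% and 3.32% to 5.81% of all features were called. In the fits without untagged replicate 1 a single library stands for untagged cells and is assumed to vary like the other groups. SUT004 was also lower with New1-HTP when the replicate number was a block (edgeR adjusted p = 8.98e-06, with 7.06% of all features called), on 71 reads from 6 cDNAs in untagged replicate 2, 1 antisense read in replicate 1 and 0 and 91 reads in New1-HTP. The median log2 change over all features was 8.17 and 8.35 in these 2 comparisons. With 823 mapped reads (1094 on features) in untagged replicate 1, no level of a SUT can be judged from them.

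Of the genes that act in the termination and decay of noncoding transcripts, none passed the test. The list held 15 genes: *NRD1*, *NAB3* and *SEN1* of termination, *PAP2*, *TRF5*, *AIR1*, *AIR2* and *MTR4* of the TRAMP complexes, *RRP6* and *DIS3* of the exosome, *XRN1* and *DCP2* of 5′ decay, and *NAM7*, *NMD2* and *UPF3* of nonsense-mediated decay. With Hel2-HTP in *new1Δ* against wildtype, 0 of 13 tested passed at 20°C and 0 of 13 at 30°C, and with New1-HTP against Hel2-HTP 0 of 11 (0 at an unadjusted p under 0.05 in each, edgeR). Against untagged cells, 0 of 14 passed at 30°C (1 at an unadjusted p under 0.05), and at 20°C 0 of 11 for Hel2-HTP (1) and 0 of 11 for New1-HTP (2). Over all features, 0.583%, 0.0945% and 0.0387% passed in the comparisons among tagged libraries, and 1.11%, 1.75% and 1.45% against untagged cells. With shares this small, 0 calls in a list of 15 genes say nothing of these genes in particular. Between 6 and 14 of the 15 had at least 10 reads in a tagged library.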

How the data were processed

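CRAC libraries of 14 samples in 7 groups with 2 replicates each were examined. The deposited counts of sense reads per feature come from pyReadCounters, run by the authors on novoalign alignments with an Ensembl annotation to which noncoding transcripts had been added. Its version was 1.4.2 for the 30°C and 1.4.4 for the 20°C libraries, per the file headers. Reads were neither collapsed nor scaled. RPKM values, likewise deposited, were used here only to derive feature lengths, and the numbers of distinct cDNAs per feature, deposited counts over both strands, as an alternative. Features without a read in a library are not listed in its file and were set to 0.

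Tests over all features used R 4.3.3 and edgeR 4.0.16 (TMM, filterByExpr, quasi-likelihood F-test, Benjamini-Hochberg adjustment over all features, adjusted p of 0.05). The 8 Hel2-HTP libraries entered 1 fit with strain within temperature and the replicate as a block, since the paper forms ratios within replicates and states 1 run for each; the 6 tagged libraries at 20°C, all 6 at 30°C and all 8 at 20°C entered further fits without a block. As to the pairing by number, deviations of same-numbered wildtype and *new1Δ* libraries had r = 0.0375 (20°C) and 0.0746 (30°C) over 6350 features, which are not independent replicates. Alternatives were DESeq2 1.42.0, its size factors within edgeR, other filters, the block, fewer features, distinct cDNAs, other denominators, and each library left out. The fits were also run on simulated data with a fixed spread, in which only features with many reads were changed, and by a large factor. That run does not measure what can be detected for SUTs. Shares were compared by exact permutation over libraries in Python 3.11.15 with scipy 1.17.1, pandas 2.3.3 and numpy 2.4.6, and plotted with matplotlib 3.10.9. Intervals are Wilson intervals at 95%, and the limit for 0 reads is 3 reads.

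The SUTs named are the 12 with the highest mean share of SUT reads over tagged libraries, those called in a comparison, the 5 highest in reads per kb per 1000000 mapped reads, SUT719, SUT643 and SUT457, and partners with like reads; other SUTs were named after their values were seen. The members, lists and tests were chosen with earlier results of these data known. Sequences and positions are from RefSeq (assembly R64). The paper calls the replicates biological, and the labels do not say more of their origin, so p-values measure the spread between these libraries only.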

Additional observations from a re-analysis of the deposited data

How the results depend on the processing

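With 2 libraries per group, leaving out 1 library changed several values. The count of SUTs called ranged from 0 to 1 for Hel2-HTP wildtype against untagged cells at 30°C (SUT350 without untagged replicate 1, SUT837 without untagged replicate 2), and from 0 to 1 (SUT004) for Hel2-HTP wildtype and for New1-HTP against untagged cells at 20°C. It stayed at 0 for the other 3 comparisons. The log2 ratio of SUT shares ranged from −0.64 to 0.0085 for *new1Δ* against wildtype, the highest value being the one without replicate pair 2 at 20°C, from −0.90 to 0.52 for tagged against untagged at 20°C, the highest without untagged replicate 1, from −2.12 to −1.59 at 30°C and from 0.03 to 0.16 for New1-HTP against Hel2-HTP.

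With DESeq2, 1 SUT was called in *new1Δ* at 20°C and 1 for Hel2-HTP wildtype against untagged cells at 30°C. With distinct cDNAs of both strands, 6 were called in *new1Δ* at 20°C, 3 in *new1Δ* at 30°C and 3 for Hel2-HTP wildtype against untagged cells at 30°C. Without a filter on low counts, 1 SUT (SUT004) was called in each comparison with untagged cells at 20°C. There 228 (Hel2-HTP wildtype) and 229 (New1-HTP) of 11831 features passed. With only the libraries compared, SUT004 was again the 1 SUT called in each, where 387 of 2495 and 2 of 2598 features passed. For New1-HTP against untagged cells 1 was also called with the replicate block. Without the replicate block, 0 SUTs were called in *new1Δ* at either temperature, and the block changed no other call. The log2 ratio of the shares of tagged against untagged libraries at 20°C was −2.86 with protein-coding reads as denominator and −1.58 without rRNA and tRNA (both exact permutation p = 0.0357), and 0.078 without SUT004. For *new1Δ* against wildtype the log2 ratio of shares was 0.14 with distinct cDNAs. The causes of these changes were not tested. Of 152 alternatives, 121 kept the direction and side of the threshold or the count. This does not measure how firm the results are, because many alternatives could not have changed side. For the shares, the smallest possible p was 0.0667 against untagged cells at 30°C, 0.333 for New1-HTP against Hel2-HTP and 0.125 for *new1Δ* against wildtype (exact tests). Many of the counts of calls compare 0 with 0. A minimum of 10 reads in every library compared left no SUT to test in 4 comparisons. The values without SUT004, without SUTs that had the read numbers of another feature, with mapped reads as denominator, and the order of SUTs without the library with 402 SUT reads were chosen after the data were seen. SUTs with few cDNAs and the shallow untagged libraries at 20°C limit what can be detected.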
